A study of Mus musculus with 18 samples.

Results

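The immediate early response genes analysed here were Fos, Jun, Junb, Jund, Egr1, Ier2, Ier3, Atf3, Dusp1 and Klf6, taken by symbol from the table of normalized values. All 10 had a row, out of 14451 genes in the table. Expression was measured by RNA sequencing of whole livers from wild-type (WT) male mice, aged 8 to 9 weeks, that had received no drug or other treatment and lived in 12 h of light and 12 h of darkness. Livers were taken at zeitgeber time (ZT, hours after lights on) 1, 5 and 9 in the light and ZT13, 17 and 21 in the dark. Each of the 6 groups held 3 livers from 3 mice, so the 18 livers were 18 animals and no mouse was followed over time.

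Immediate early genes are transcribed within minutes of a stimulus without new protein synthesis, because the factors that switch them on are already present in the cell and are activated by kinases. Growth factors, hormones, feeding, cell stress and tissue handling are all known to raise them, and their mRNAs are usually short-lived. In the liver they are best known from regeneration and the acute response to injury. Fos, Jun, Junb and Jund are subunits of AP-1, a dimeric transcription factor. Atf3 belongs to the same leucine zipper superfamily, Egr1 and Klf6 are zinc finger transcription factors, Ier2 and Ier3 are small early response proteins, and Dusp1 is a phosphatase that switches off MAP kinases.

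The upstream windows of 4 of these genes are shown so that the sequence next to the start can be read beside the level: Fos, Jun and Junb because their levels differed between time points, and Dusp1 because it alone held a full cAMP response element (CRE) while its level was not called different. The sequences are RefSeq windows of GRCm38.p6, written 5′ to 3′ on the strand of the gene, and end at the RefSeq start of transcription (Dusp1 is shortened by the 47 bases that lie in an exon of the GENCODE M21 annotation). They lie at chr12:85473640-85473889 on the plus strand (Fos) and, on the minus strand, at chr4:95052223-95052472 (Jun), chr8:84978749-84978998 (Junb) and chr17:26508520-26508722 (Dusp1). Capitals mark a match, on either strand, to the GC box (GGGCGG), the TATA box (TATAAA), the CCAAT box (CCAAT), the E-box (CACGTG) or the CRE (TGACGTCA).
Fos: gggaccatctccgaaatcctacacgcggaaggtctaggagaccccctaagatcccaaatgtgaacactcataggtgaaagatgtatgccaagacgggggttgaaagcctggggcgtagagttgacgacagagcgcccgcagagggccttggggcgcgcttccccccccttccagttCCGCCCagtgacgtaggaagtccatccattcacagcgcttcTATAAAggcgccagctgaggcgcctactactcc
Jun: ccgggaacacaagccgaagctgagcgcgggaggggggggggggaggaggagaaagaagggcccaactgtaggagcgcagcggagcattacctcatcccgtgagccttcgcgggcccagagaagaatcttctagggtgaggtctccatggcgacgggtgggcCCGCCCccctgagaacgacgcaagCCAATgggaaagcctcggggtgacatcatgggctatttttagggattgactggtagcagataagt
Junb: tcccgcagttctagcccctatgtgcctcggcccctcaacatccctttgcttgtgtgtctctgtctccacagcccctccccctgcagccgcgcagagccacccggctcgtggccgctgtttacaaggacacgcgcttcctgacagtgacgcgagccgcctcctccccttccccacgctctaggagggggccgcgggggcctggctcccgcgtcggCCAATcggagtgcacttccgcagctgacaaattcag
Dusp1: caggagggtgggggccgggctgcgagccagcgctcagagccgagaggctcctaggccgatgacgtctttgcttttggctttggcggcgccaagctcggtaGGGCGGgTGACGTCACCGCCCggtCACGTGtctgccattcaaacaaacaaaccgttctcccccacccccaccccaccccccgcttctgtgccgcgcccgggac

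Windows of 250 bases were found for 8 of the 10 genes, the exceptions being Egr1 and Ier2. The GC box was present in 6 of the 8, against 32.7% of the 32817 mouse windows searched, and the CCAAT box in 4 of the 8, against 33.8%. The TATA box was found in Fos alone of the 8 (12.4% of all windows), the CRE in Dusp1 alone (1.55%), and the E-box in Dusp1 and Klf6 (6.02%). The AP-1 element (TGANTCA, 6.75% of all windows), the D-box (TTATGNAA, 3.07%), the EGR element (GCGNGGGCG, 4.7%) and the CArG box bound by serum response factor (1.47%) had no match in any of the 8 windows. The RefSeq start that ends a window is not always the start of the gene in GENCODE M21. The Jund window ended 1210 bases upstream of that start, the Junb window 30 bases upstream of it, and the Atf3 and Dusp1 windows lay within the longer GENCODE gene. These are matches of letters in a short window and describe the sequence only.

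The livers had from 10268168 to 23242842 estimated reads assigned to genes. The time labels were checked with the clock genes Arntl, Nr1d1, Dbp and Per2, whose means were highest at ZT1, ZT5, ZT9 and ZT13 in that order, each with an adjusted p of at most 3.12e-06 for a difference between time points. The tissue label was checked with 6 hepatocyte markers, of which Alb was the most abundant and whose summed value lay between 73391 and 104803 in every liver. Markers of the other cells of the liver varied more: the summed value of 6 Kupffer cell markers (Clec4f the most abundant) lay between 87.7 and 236.0, that of 6 sinusoidal endothelial markers (Kdr) between 87.9 and 220.7, that of 6 stellate cell markers (Dcn) between 153.9 and 275.0, and that of 5 cholangiocyte markers (Spp1) between 31.5 and 57.5. Blood cell markers ranged between 96.9 and 366.7 (3 erythroid genes, Alas2 the most abundant), 0.893 and 2.72 (3 neutrophil genes, Ly6g) and 0.783 and 3.57 (3 lymphocyte genes, Ms4a1). In whole liver, fewer cells of a type and less RNA per cell cannot be told apart.

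To compare genes, values were divided by the kilobases of exon, merged over all GENCODE M21 transcripts of a gene. On this scale the median level over the 18 livers was highest for Jund, at 12.1. It was followed by Ier2 at 11.5, Dusp1 at 9.21, Junb at 7.30 and Jun at 5.05. The place of Dusp1 depends on the length used: its merged exons hold 3311 bases and its longest coding transcript 1990. For Jund both lengths were 1668 bases, and with 1990 bases Dusp1 would lie above Jund. Egr1 (1.66), Klf6 (1.63), Atf3 (0.717), Ier3 (0.544) and Fos (0.330) were lower. The ranges over the livers overlapped between all neighbours in this order. Egr1 spanned the widest range of the 10, from 0.155 to 27.3 per kilobase. Fos, Ier3 and Atf3 rested on few reads, namely 4 to 45, 2 to 19 and 7 to 46 per liver.

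**Figure D1:**
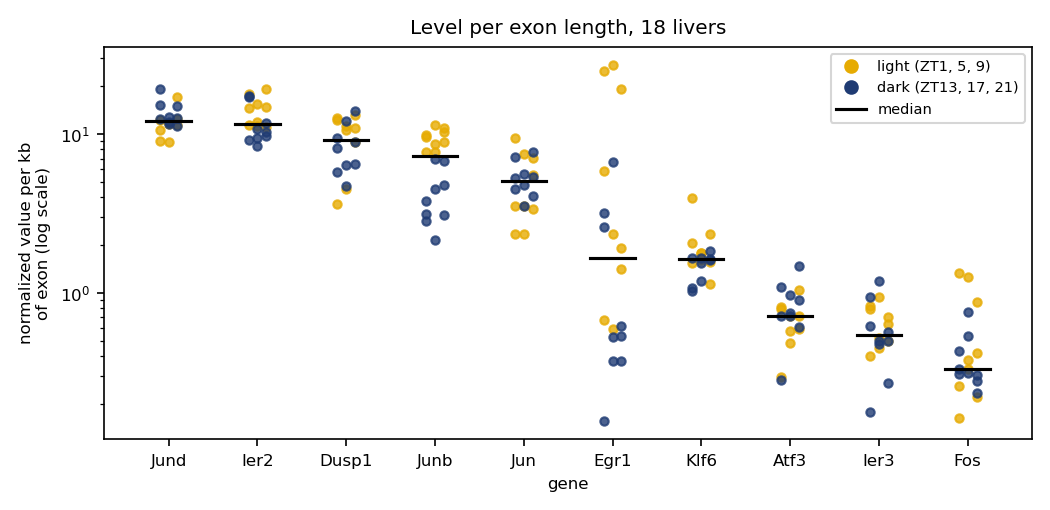
Normalized value per kilobase of exon (log scale) of the 10 genes, 1 point per liver, yellow in the light and blue in the dark, with the median over 18 livers as a line. By merged exon length, Jund had the highest median (12.1) and Fos the lowest (0.330), and Egr1 had the widest range, with its 3 top points from ZT1.

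Whether a gene differed between any of the 6 time points was tested with limma on log2(value + 1), with p adjusted by Benjamini–Hochberg over 14449 genes and a gene called where the adjusted p was below 0.05. Of the 10 genes, 4 were called, against 26.3% of all genes tested: Egr1 (adjusted p = 0.000319), Junb (0.00213), Fos (0.00226) and Jun (0.0184). Ier2 lay just outside the threshold, at 0.0535. At an unadjusted p below 0.05 there were 5 of the 10, against 39.9% of all genes. The other 5 were further from it, with adjusted p of 0.180 (Klf6), 0.233 (Atf3), 0.411 (Ier3), 0.624 (Jund) and 0.734 (Dusp1) by limma. The livers of the highest and lowest time points did not overlap in 8 of the 10 genes, the exceptions being Jund and Klf6, which is close to the share of all genes, 70.8%, for which the same held.

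**Figure D2:**
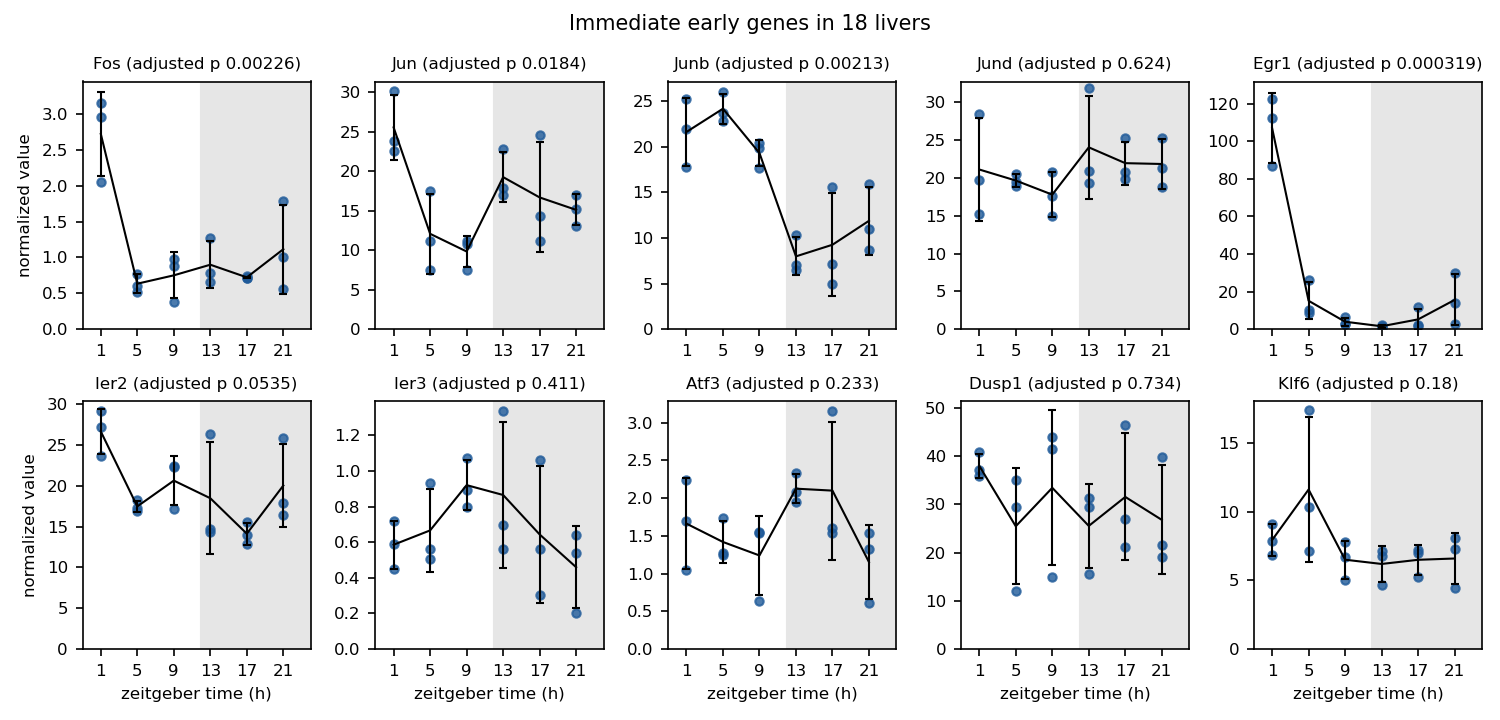
Normalized value (linear scale, each panel from 0) against zeitgeber time in hours, 1 point per liver, with the mean and SD of the 3 livers of each time point in black, the dark phase in grey, and the adjusted p of the time point difference above each panel. Egr1, Fos and Jun had their highest mean at ZT1, Junb was high at ZT1, ZT5 and ZT9, and Dusp1 and Jund had no time point that stood apart.

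Egr1 had the largest difference over the day of the 10 genes. At ZT1 the 3 livers had values of 112.3, 122.3 and 86.6, and at ZT5 of 26.4, 10.5 and 8.55. At ZT9 they had 3.02, 2.66 and 6.32, and at ZT13 0.697, 1.68 and 2.39. At ZT17 the values were 11.7, 2.38 and 1.66, and at ZT21 14.2, 29.9 and 2.77. The ZT1 livers thus stood above all others, while the livers of ZT17 and ZT21 were spread over a wide range and overlapped with those of ZT5 and ZT9. The mean was 107 ± 18.4 (SD, n = 3) at ZT1 and 1.59 ± 0.849 (SD, n = 3) at ZT13, a ratio of 67.4. On the log2(value + 1) scale the highest and lowest time points were 5.43 apart, the third largest such difference of the 14449 genes, and the ZT13 values rested on 8 to 27 reads. Egr1 (ENSMUSG00000038418) is a gene of 2 exon blocks on chromosome 18, from 34859823 to 34864984 of GRCm38, with no overlapping gene in the annotation.

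Fos, the usual partner of the Jun proteins in AP-1, was low in all livers and highest at ZT1. Its values were 3.15, 2.96 and 2.06 at ZT1, 0.608, 0.775 and 0.520 at ZT5, and 0.383, 0.885 and 0.984 at ZT9. In the dark they were 0.779, 1.27 and 0.651 at ZT13, 0.720, 0.735 and 0.713 at ZT17, and 1.01, 1.78 and 0.554 at ZT21. All 3 ZT1 livers were above the other 15, the nearest of which was a ZT21 liver at 1.78. The ratio of the ZT1 mean (2.72 ± 0.584, SD, n = 3) to the ZT5 mean (0.634 ± 0.129, SD, n = 3) was 4.29. Fos and Egr1 were the 2 genes of the 10 in which every ZT1 liver lay above every other liver, which was the case for 0.907% of all genes, and this way of looking at them was chosen after their values had been seen. In both, the highest liver outside ZT1 was the same ZT21 liver, replicate 2. Fos (ENSMUSG00000021250) lies on chromosome 12, from 85473890 to 85477273, in 4 exon blocks.

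Jun, which can pair with itself or with Fos, had values of 30.2, 23.8 and 22.6 at ZT1. It was low at ZT5 (7.50, 11.2 and 17.5) and ZT9 (11.2, 7.53 and 10.8), and higher again at ZT13 (22.8, 17.9 and 17.0). At ZT17 the livers had 14.3, 11.2 and 24.5, and at ZT21 17.0, 15.2 and 13.1. The means were thus lowest at ZT9 and ZT5, and the livers of ZT1 and ZT9, the highest and lowest time points, did not overlap, as was the case in 70.8% of all genes. The mean at ZT1 (25.5 ± 4.07, SD, n = 3) was 2.60 times that at ZT9 (9.83 ± 2.0, SD, n = 3). Without ZT1 replicate 1, the liver with the highest value, the adjusted p of the time point difference was 0.0535 by limma. Jun (ENSMUSG00000052684) is a single-exon gene on chromosome 4, from 95049034 to 95052222, and overlaps Junos, an antisense gene. The strand setting of the counting is not given in the sources used here, so that reads of Jun and Junos cannot be told apart. The same holds for Junb, Jund, Atf3 and Dusp1 and the genes that overlap them on the opposite strand, named with each.

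Junb, an AP-1 subunit that often opposes Jun, was high through the light phase and low in the dark. The light phase values were 21.9, 17.8 and 25.2 at ZT1, 22.8, 26.0 and 23.7 at ZT5, and 17.7, 19.9 and 20.4 at ZT9. Those of the dark phase were 6.52, 10.4 and 7.08 at ZT13, 7.17, 4.98 and 15.6 at ZT17, and 8.68, 15.9 and 11 at ZT21. Every light liver (17.7 to 26.0) was above every dark liver (4.98 to 15.9), a separation found in this direction for 0.450% of all genes. As with the ZT1 livers of Fos and Egr1, this way of looking was chosen after the values had been seen. The ZT5 mean (24.2 ± 1.67, SD, n = 3) was 3.03 times the ZT13 mean (7.99 ± 2.08, SD, n = 3). Junb (ENSMUSG00000052837, chromosome 8 from 84974484 to 84978718) overlaps Prdx2 on the opposite strand. Prdx2 had its own row, with values between 79.3 and 102.0 and means that were higher in the dark (94.1 to 98.6) than in the light (83.3 to 84.8), the opposite order to that of Junb.

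Jund, the subunit known for steady expression, had the highest level per kilobase and the least variation between time points. Its values were 15.2, 19.7 and 28.4 at ZT1, 20.5, 19.4 and 19.0 at ZT5, and 17.6, 15 and 20.8 at ZT9. In the dark they were 31.8, 19.3 and 20.9 at ZT13, 20.7, 19.9 and 25.2 at ZT17, and 25.3, 21.3 and 18.8 at ZT21. All time points overlapped, and the ZT13 mean was 1.35 times the ZT9 mean. The coefficient of variation (CV) between time point means was 0.102 in Jund, lower than the median of all genes (0.149), against 0.339 in Jun, 0.437 in Junb and 0.695 in Fos. Jund (ENSMUSG00000071076, chromosome 8 from 70698949 to 70700616) overlaps an antisense gene, Gm11175, which had values between 1.86 and 5.79.

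Ier2, a nuclear early response protein, was highest at ZT1, with 27.2, 23.6 and 29.1, and lowest at ZT17, with 14.0, 12.8 and 15.6. Between them it had 17.2, 18.2 and 17.0 at ZT5, 22.3, 17.2 and 22.4 at ZT9, 26.4, 14.3 and 14.7 at ZT13, and 25.9, 16.4 and 17.8 at ZT21. The ZT1 and ZT17 livers did not overlap (ratio of means 1.89), while 1 liver each of ZT13 and ZT21 reached the ZT1 range. Of the 18 fits that left out 1 liver, 4 called Ier2, with an adjusted p from 0.00618 to 0.141, the highest without ZT1 replicate 3, and of the 6 other settings 3 called it, from 0.0297 to 0.0751. The adjusted p of 0.0535 fell to 0.00618 without ZT13 replicate 1, and to 0.0334, 0.0484 and 0.0496 by limma without ZT21 replicate 1, ZT21 replicate 2 and ZT9 replicate 2. It was 0.0462 when genes with a mean value under 1 were left out, 0.0410 with livers rescaled to equal totals, and 0.0297 with a trended and robust prior in limma. Ier2 (ENSMUSG00000053560) lies on chromosome 8, from 84661331 to 84662852, in 1 exon.

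Ier3, a stress-inducible regulator of survival, was at the edge of detection, with 2 to 19 reads per liver. It had values of 0.450, 0.591 and 0.717 at ZT1, 0.932, 0.505 and 0.562 at ZT5, and 0.894, 1.07 and 0.796 at ZT9. In the dark it had 0.697, 1.33 and 0.565 at ZT13, 1.06, 0.562 and 0.305 at ZT17, and 0.202, 0.539 and 0.639 at ZT21. The highest and lowest means, at ZT9 (0.921) and ZT21 (0.460), differed by a factor of 2.0, and no difference was called. Ier3 (ENSMUSG00000003541) lies on chromosome 17, from 35821684 to 35822923.

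Atf3, a stress-induced factor that mostly represses, had values of 1.70, 1.05 and 2.25 at ZT1, 1.74, 1.25 and 1.27 at ZT5, and 0.638, 1.54 and 1.55 at ZT9. In the dark the livers had 2.34, 2.09 and 1.95 at ZT13, 1.54, 1.60 and 3.16 at ZT17, and 0.605, 1.53 and 1.32 at ZT21. The mean was highest at ZT13 (2.13 ± 0.194, SD, n = 3) and lowest at ZT21 (1.15 ± 0.486, SD, n = 3), and all other time points overlapped with one of them. Atf3 (ENSMUSG00000026628) lies on chromosome 1, from 191170296 to 191218039, and overlaps the small RNA gene Gm24748.

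Dusp1, which dephosphorylates the MAP kinases p38, JNK and ERK and so ends the signal that induces it, varied mainly between livers of the same time point. It had values of 40.8, 37.2 and 36.0 at ZT1, 12.0, 35.0 and 29.5 at ZT5, and 41.5, 15 and 43.9 at ZT9. In the dark it had 31.4, 15.6 and 29.6 at ZT13, 27.1, 21.2 and 46.4 at ZT17, and 19.1, 39.8 and 21.5 at ZT21. The ZT1 livers were close together, while ZT5, ZT9 and ZT13 each held 1 liver at less than 16. Its CV between replicates was 0.366, above that of 86.4% of genes, and its CV between time points 0.168. Dusp1 (ENSMUSG00000024190, chromosome 17 from 26505590 to 26562128) overlaps Ergic1 on the opposite strand, which had values between 51.8 and 79.5, and 3 further small or non-coding annotations.

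Klf6, a zinc finger factor made by stellate cells and also by hepatocytes, had values of 9.10, 7.87 and 6.83 at ZT1, 17.4, 7.11 and 10.3 at ZT5, and 6.72, 7.78 and 5.01 at ZT9. In the dark it had 4.68, 6.74 and 7.17 at ZT13, 7.24, 5.23 and 7.02 at ZT17, and 4.48, 7.25 and 8.05 at ZT21. The ZT5 mean (11.6 ± 5.26, SD, n = 3) was the highest and rested on replicate 1. Without that liver the highest and lowest time points were 0.43 apart on the log2 scale, against 0.75 with it. The same liver had the highest summed markers of Kupffer cells (236.0), sinusoidal endothelium (220.7), stellate cells (275.0) and erythroid cells (366.7) of all 18, and the lowest Dusp1 value of all 18. The part of these cells in the Klf6 value was not tested. Klf6 (ENSMUSG00000000078) lies on chromosome 13, from 5861482 to 5870394.

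The steps between neighbouring time points, 4 h apart, show when the levels moved. From ZT1 to ZT5, 3 of the 10 genes fell and none rose by limma, against 4.89% of all genes called in either direction and 2.36% called lower. Fos fell by 1.18 ± 0.193 on the log2(value + 1) scale (SE, adjusted p = 0.00197), Jun by 1.08 ± 0.273 (adjusted p = 0.0324) and Egr1 by 2.89 ± 0.669 (adjusted p = 0.0203). Fos had low values, and the added 1 narrows its differences: over the 6 other settings of scale, filter and prior this one ran from -2.10 to -1.13. The fall of Fos passed the threshold in all 18 fits that left out 1 liver. That of Egr1 did not without ZT1 replicate 1, ZT1 replicate 2, ZT5 replicate 2 or ZT5 replicate 3, where limma gave adjusted p of 0.0548, 0.0814, 0.0618 and 0.0916. That of Jun did not without any one of the 3 ZT1 livers (0.10, 0.0839 and 0.0640), ZT5 replicate 1 (0.137) or ZT5 replicate 2 (0.0745). With no pseudocount the adjusted p was 0.0685 for Egr1 and 0.0519 for Jun, and with one of 0.1 it was 0.0593 for Egr1. Rescaled to equal totals, 71.8% of the genes called in this step were higher at ZT5, against 51.7% as deposited.

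From ZT9 to ZT13, across the onset of darkness, 2 of the 10 genes were called by limma, against 9.23% of all genes. Jun rose by 0.91 ± 0.273 (SE, adjusted p = 0.0496, with 4.64% of all genes called higher), and Junb fell by 1.20 ± 0.289 (SE, adjusted p = 0.0172, with 4.60% called lower). The rise of Jun was at the threshold: leaving out any of 14 livers, namely all those of ZT1, ZT9, ZT13 and ZT21, ZT5 replicate 2 and ZT17 replicate 1, gave an adjusted p of 0.0547 to 0.177, and it lay between 0.0513 and 0.0662 with a pseudocount of 0.1 or none and with either rescaling of the livers. The fall of Junb was not called without ZT13 replicate 1 (0.0746), ZT13 replicate 3 (0.0531), ZT9 replicate 2 (0.0587) or ZT9 replicate 3 (0.0525). With livers rescaled to equal totals, 35.3% of the genes called in this step were higher at ZT13, against 50.2% as deposited.

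None of the 10 genes was called by limma in the other 4 steps, where few genes were called at all: 1.54% from ZT5 to ZT9, 1.20% from ZT13 to ZT17, 1.51% from ZT17 to ZT21 and 0.131% from ZT21 to ZT1. At an unadjusted p below 0.05 there were 2 of the 10 in the first of these (12.2% of all genes), none in the second (14.9%), 2 in the third (14.5%) and 4 in the last (9.18%). The return from ZT21 to ZT1, which shares the 3 ZT1 livers with the step to ZT5, nevertheless held the largest estimated rise of the 14449 genes, that of Egr1, by 3.15 ± 0.669 on the log2 scale (SE, adjusted p = 0.109). Fos was estimated 0.84 ± 0.193 higher at ZT1 than at ZT21 (SE, adjusted p = 0.144) and Junb 0.84 ± 0.289 higher (SE, adjusted p = 0.392). The linear means at ZT1 and ZT21 were 2.72 and 1.11 in Fos, and 21.6 and 11.9 in Junb. Over the 6 other settings of scale, filter and prior, none of which called it, the Fos estimate ran from 0.83 to 1.42. ZT21 replicate 2, the dark liver with the highest Fos and Egr1 values, weighed on this step: without it, limma gave an adjusted p of 0.0389 for Egr1 and 0.0372 for Fos. Of the 18 omissions it alone gave a call in either gene, and without ZT1 replicate 1 the adjusted p were 0.337 and 0.457.

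**Figure D3:**
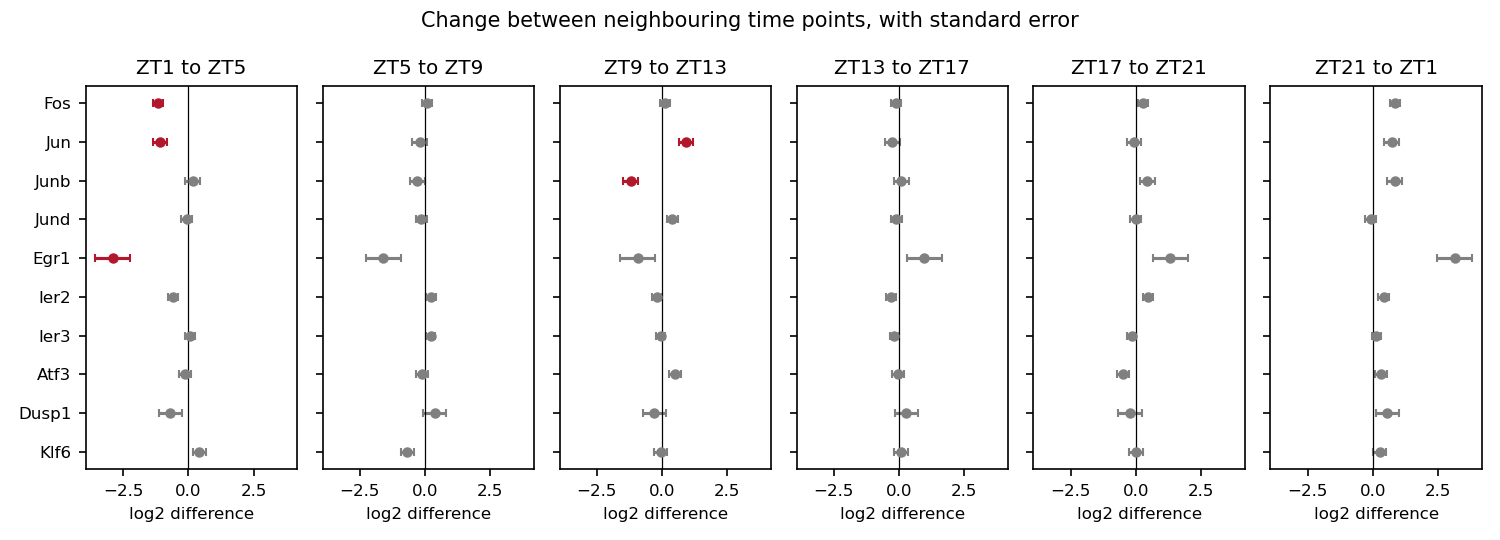
Difference in log2(value + 1) between each time point and the one before it, with its standard error as a bar, for the 10 genes; red marks an adjusted p below 0.05. Fos, Jun and Egr1 lie to the left of 0 in the step from ZT1 to ZT5, Jun to the right and Junb to the left in that from ZT9 to ZT13, and Egr1 at 3.15, in grey, in that from ZT21 to ZT1.

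A rhythm of 24 h was tested with a cosine and sine of fixed period. Junb and Egr1 were called, 2 of the 10, against 35.3% of all genes. Junb had an amplitude of 0.84 ± 0.116 on the log2 scale (SE, adjusted p = 0.000118 by limma), with its fitted peak at ZT4.14 ± 0.528 h. Egr1 had an amplitude of 2.30 ± 0.327 (SE, adjusted p = 0.000164 by limma), with its fitted peak at ZT1.11 ± 0.545 h. The rank test JTK, with periods of 20, 24 and 28 h, called the same genes of the 10, with adjusted p of 0.0148 for Egr1 and 0.0176 for Junb. Fos had an amplitude of 0.36 ± 0.124 with its fitted peak at ZT24.0 and was not called (limma adjusted p = 0.0719), although without ZT13 replicate 2 or ZT21 replicate 3 it was, at 0.0393 and 0.0287, and without ZT1 replicate 1 the adjusted p was 0.174. Ier2 likewise was not called with all livers (limma adjusted p = 0.140) and was in 1 of the 18 fits that left out a liver, without ZT13 replicate 1 (0.0239), the highest being 0.269 without ZT1 replicate 3.

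A 12 h term added to the 24 h curve was called for none of the 10 genes by limma, against 0.872% of all genes, while 4 of the 10 had an unadjusted p below 0.05, against 12.6% of all genes. The lowest adjusted p were those of Jun, 0.0801, and Fos, 0.0982. In Jun the 12 h amplitude (0.50 ± 0.109, SE) was larger than the 24 h amplitude (0.33 ± 0.156, SE), the difference between the 2 amplitudes not having been tested. The same order was seen in Fos (0.391 against 0.365), Ier2 (0.268 against 0.245), Atf3 (0.249 against 0.168) and Dusp1 (0.119 against 0.111). The remaining members had the larger amplitude at 24 h. Over all genes the median amplitudes were 0.089 at 12 h and 0.162 at 24 h. Without ZT17 replicate 3, the dark liver with the highest Jun value, the 12 h term of Jun had an adjusted p of 0.0398 by limma, the only call in the 18 fits without 1 liver, and without ZT1 replicate 1 one of 0.193.

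Between the 9 dark and the 9 light livers, 2 of the 10 genes were called by limma, both lower in the dark, against 24.3% of all genes called and 12.3% called lower. Junb had a difference, dark minus light, of -1.16 on the log2 scale (SE 0.167, adjusted p = 0.000176), and Egr1 one of -1.88 (SE 0.386, adjusted p = 0.00260). Light and dark livers did not overlap in Junb and did in Egr1, where the light livers lay between 2.66 and 122.3 and the dark ones between 0.697 and 29.9. Of the other genes, Klf6 (-0.33) and Ier2 (-0.30) had the largest differences, with limma adjusted p of 0.121 and 0.0714. Ier2 was called without ZT13 replicate 1 (0.00715) or ZT21 replicate 1 (0.0302) and with livers rescaled to equal totals (0.0338), Klf6 without ZT5 replicate 2 (0.0389), and Fos without ZT21 replicate 2 (0.0466). Over the 18 fits without 1 liver the adjusted p reached 0.133 for Ier2, 0.232 for Klf6 and 0.325 for Fos. The summed Kupffer cell markers lay between 101.1 and 236.0 in the light and between 87.7 and 218.4 in the dark, and the sinusoidal endothelial markers between 119.1 and 220.7 and between 87.9 and 180.6. Of the 6 Kupffer cell markers, Cd5l was called lower in the dark (-0.52, limma adjusted p = 0.0431), and of the 6 sinusoidal endothelial markers Oit3 (-0.45, 0.0330) and Kdr (-0.45, 0.0475), the same direction as in Junb and Egr1, and none of either list was called higher. The part of these cells in the differences was not tested. As deposited, 50.8% of all called genes were lower in the dark, and with livers rescaled to equal totals 69.6% were.

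**Figure D4:**
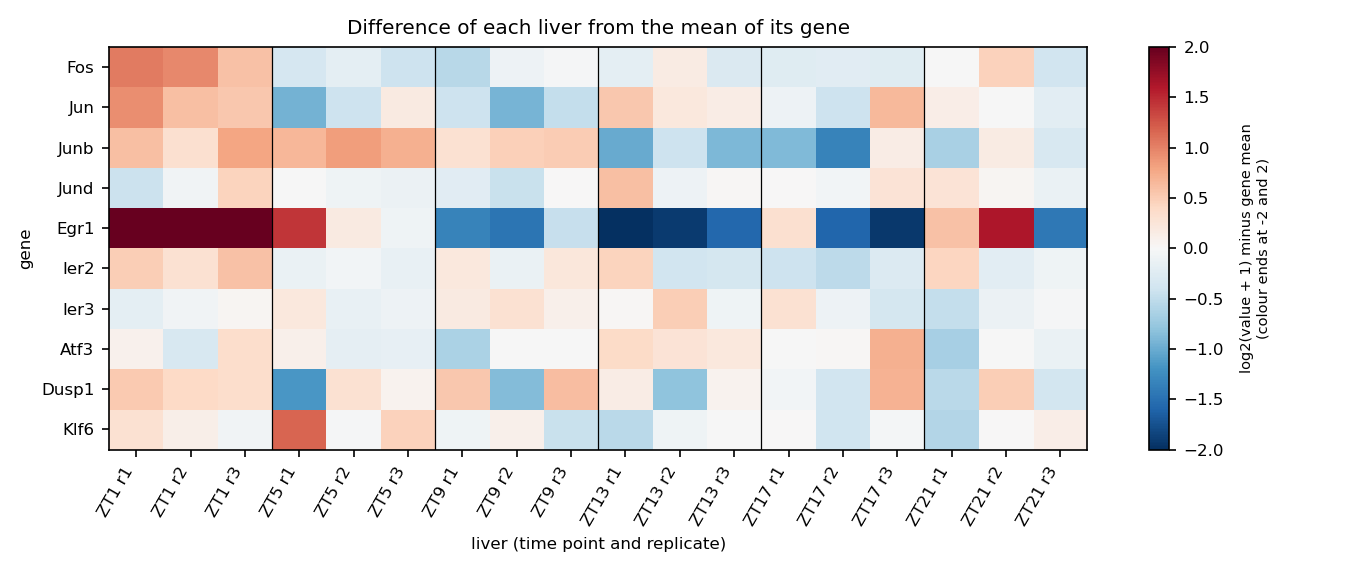
Difference of log2(value + 1) in each of the 18 livers from the mean of the gene over all livers, red above and blue below, with r1 to r3 for replicates 1 to 3 and lines between time points. The ZT1 livers are red in Fos, Jun, Junb, Egr1, Ier2 and Dusp1, Junb turns from red to blue between ZT9 and ZT13, and ZT21 replicate 2 is red in Egr1.

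All 10 genes had a CV between replicates above the median of all genes (0.138). It ran from 0.168 in Ier2 and 0.182 in Jund, above 58.6% and 61.9% of genes, to 0.633 in Egr1, above 97.3%. A CV also depends on the number of reads, and the comparison with all genes was not matched for level. Ier3, Fos and Atf3, with CVs of 0.383, 0.297 and 0.321, had means above only 8.87%, 15.4% and 19.8% of genes. The CV between time points exceeded that between replicates in Fos (0.695 against 0.297), Jun (0.339 against 0.249), Junb (0.437 against 0.249), Egr1 (1.64 against 0.633), Ier2 (0.213 against 0.168) and Klf6 (0.275 against 0.246). In Jund, Ier3, Atf3 and Dusp1 it was the smaller of the 2. Over all genes the median CV was 0.149 between time points and 0.138 between replicates. How many of all genes had either order was not counted. The first CV is taken over means of 3 livers and the second over single livers, so their order is not a test of change. No liver was the highest or the lowest of its 3 in all 10 genes. ZT9 replicate 3 was the highest of its 3 in 7 genes and ZT17 replicate 3 in 6, and ZT17 replicate 2 was the lowest in 6.

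To see whether the genes moved together between livers of the same time point, the deviations from the time point means were correlated for all 45 pairs, with an exact permutation test within time points over 46656 orders. None of the 45 passed at an adjusted p below 0.05, while 6 had an unadjusted p below that value, and the median Pearson r was 0.045. Of these 6 pairs, 4 had a positive and 2 a negative r. How often pairs of other genes reach such values was not tested, so the count of 6 has no background. Within time points, Jund had r = 0.906 with Atp5d and with Apoe, above its r with any other member. Atp5d and Apoe were picked from many genes for their likeness to Jund. The pair of Jund and Ier2 had r = 0.733 (exact permutation p = 0.00937, adjusted p = 0.151) and Spearman rho = 0.769 (exact permutation p = 0.00604, adjusted p = 0.156), with r = 0.646 after the 2 livers farthest from the median of Jund were left out. The pair of Junb and Atf3 had r = 0.710 (exact permutation p = 0.00643, adjusted p = 0.151) and rho = 0.715 (exact permutation p = 0.00694, adjusted p = 0.156), with r = 0.626 without 2 livers. The pair of Jun and Dusp1 had r = 0.696 (exact permutation p = 0.0169, adjusted p = 0.179) and rho = 0.701 (exact permutation p = 0.0161, adjusted p = 0.205), with r = 0.682 without 2 livers. In Jun and Ier2, r was 0.452 (exact permutation p = 0.0101, adjusted p = 0.151) and rho 0.507 (exact permutation p = 0.0352, adjusted p = 0.227), with r = 0.553 without 2 livers. Ier2 and Klf6 had a negative r, -0.544 (exact permutation p = 0.0239, adjusted p = 0.179), rho = -0.595 (exact permutation p = 0.0228, adjusted p = 0.205) and r = -0.351 without 2 livers. So did Jund and Klf6, with r = -0.467 (exact permutation p = 0.0212, adjusted p = 0.179), rho = -0.579 (exact permutation p = 0.0182, adjusted p = 0.205) and r = -0.371 without 2 livers. Fos and Egr1, both highest at ZT1, were not among the 6, with r = 0.540 (exact permutation p = 0.0864, adjusted p = 0.389), rho = 0.387 (exact permutation p = 0.163, adjusted p = 0.565) and r = 0.162 without 2 livers, so that the relation rested on those livers.

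**Figure D5:**
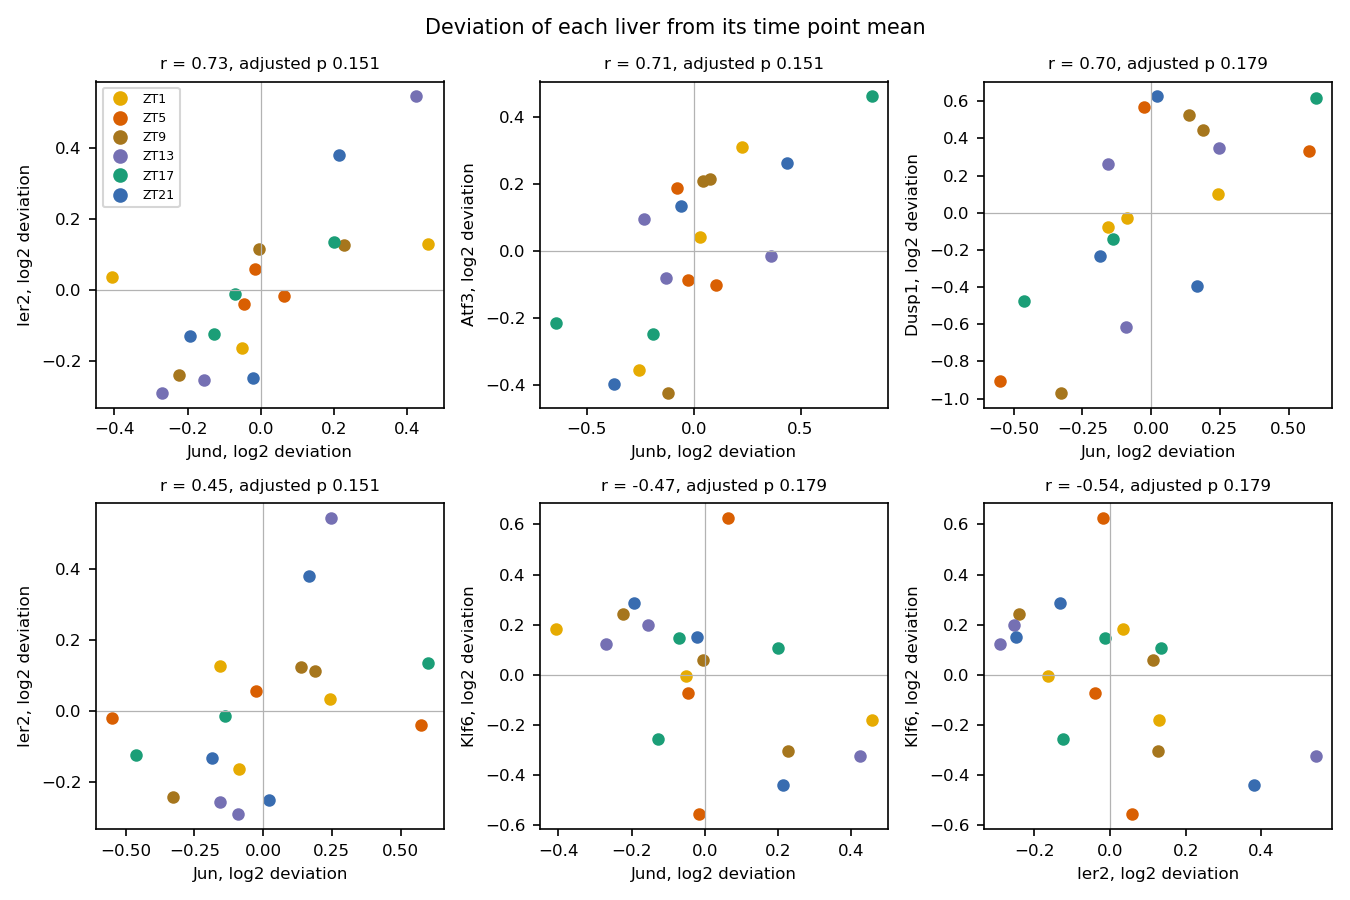
Deviation of log2(value + 1) from the mean of the time point, for the 6 pairs of genes with an unadjusted p below 0.05, 1 point per liver, coloured by time point. Points rise together in Jund and Ier2 (r = 0.733), Junb and Atf3 (0.710), Jun and Dusp1 (0.696) and Jun and Ier2 (0.452), and fall in Jund and Klf6 (-0.467) and Ier2 and Klf6 (-0.544), and no pair passed after adjustment.

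Other immediate early genes were measured in 46 cases, and 15 of them differed between time points (limma, against 26.3% of all genes), with a median difference between highest and lowest time point of 0.80 on the log2 scale against 0.44 over all genes. Their times were not those of Egr1 and Fos alone: of the 15, 6 were highest at ZT1 (against 14.4% of all called genes), 5 at ZT5 (22.3%), 3 at ZT9 (16.9%) and 1 at ZT13 (19.0%). Those highest at ZT1 included the RNA-binding protein Zfp36l1, which destabilizes mRNAs (197 ± 15.3 at ZT1 and 91.7 ± 13.2 at ZT9, SD, n = 3), the antiproliferative gene Btg1 (61.4 ± 13.8 at ZT1 and 23.8 ± 3.08 at ZT13), and the MAP kinase phosphatases Dusp6 (38.2 ± 1.86 at ZT1 and 22.0 ± 3.89 at ZT21) and Dusp8 (1.73 ± 0.632 at ZT1 and 0.286 ± 0.0164 at ZT5). Those highest at ZT5 were lowest at ZT1 or ZT17: the Krüppel-like factors Klf9 (82.9 ± 7.88 at ZT5 and 34.7 ± 1.18 at ZT17), Klf10 (56.0 ± 32.7 at ZT5 and 9.09 ± 5.34 at ZT1) and Klf2 (5.89 ± 1.79 at ZT5 and 2.57 ± 1.18 at ZT1), Id1, an inhibitor of basic helix-loop-helix factors (8.43 ± 2.88 at ZT5 and 1.99 ± 0.360 at ZT1), and Csrnp1 (15.4 ± 5.41 at ZT5 and 4.47 ± 1.94 at ZT1). Highest at ZT9 were the clock gene Per1 (28 ± 3.47 at ZT9 and 1.44 ± 0.964 at ZT1), the small Maf protein Maff (4.89 ± 0.893 at ZT9 and 1.17 ± 0.781 at ZT17) and the cytokine signalling inhibitor Socs3 (14.5 ± 0.991 at ZT9 and 4.79 ± 3.17 at ZT17). Adjusted p for these 12, the lowest of the list, ran from 1.92e-05 (Per1) to 0.0219 (Dusp8) by limma.

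Of the partners and relatives of AP-1, 9 of 16 were called by limma for the time point difference, against 26.3% of all genes, and 1 of the 9, Maff, was also counted among the 15 above. Crem, a cAMP-responsive relative, was highest at ZT1 (28.8 ± 2.49, SD, n = 3) and lowest at ZT9 (12.5 ± 2.21). Mafk was highest at ZT5 (17.8 ± 2.17). Ddit3, a stress-induced factor, was highest at ZT13 (12.7 ± 1.01) and lowest at ZT5 (4.47 ± 0.532). Adjusted p of these 3 were between 0.000867 and 0.00260.

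Of 26 kinases and transcription factors upstream of immediate early genes, 11 were called by limma for the time point difference, against 26.3% of all genes. Between dark and light 10 were called, against 24.3% of all genes, of which 8 were lower in the dark, against 12.3%. With livers rescaled to equal totals 13 of 14 calls were lower, a scaling under which 69.6% of all called genes were. The kinase Rps6ka1 was highest at ZT9 (19.3 ± 0.580, SD, n = 3) and lowest at ZT21 (11.5 ± 0.477), and Elk4, a partner of serum response factor, was highest at ZT5 (39.4 ± 1.83) and lowest at ZT17 (27.1 ± 2.80). Mapk14, which encodes p38, was highest at ZT13 (117 ± 14.9) and lowest at ZT5 (71.3 ± 4.83), and the kinase Rps6ka5 at ZT9 (2.19 ± 0.331) and ZT17 (1.05 ± 0.410). The median difference between highest and lowest time point in this list, 0.44, was that of all genes. Among MAP kinase phosphatases other than Dusp1, 4 of 9 were called by limma, against 26.3% of all genes, and 2 of the 4, Dusp6 and Dusp8, were already counted among the 15 other immediate early genes. Dusp10 was highest at ZT1 (4.70 ± 0.628) and lowest at ZT13 (2.19 ± 0.177), and Dusp3 was highest at ZT13 (42.8 ± 3.13) and lowest at ZT1 (31.1 ± 1.71).

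The genes whose profile over the 18 livers was most like that of each of the 10 were sought among 12471 genes, by Pearson r of log2(value + 1), as a description. Junb had the closest, Wipi2 (r = 0.933), Tnpo1 (0.921) and Eif4b (0.912), and Eif4b too was higher at ZT5 (257.7 ± 8.86, SD, n = 3) than at ZT13 (149.9 ± 16.0). Egr1 was followed most closely by Fam160a1 (0.865), 8430408G22Rik (0.865) and the glutathione transferase Gstm3 (0.859), of which Fam160a1 had 7.91 ± 0.632 at ZT1 and 3.13 ± 0.0557 at ZT9. Fos was most like Zfp638 (0.835), Gm10048 (0.801) and Osgin1 (0.776), and Jun most like the splicing factor Tra2b (0.810), the glutamate dehydrogenase Glud1 (0.807) and Sowahb (0.804). Jund was most like Atp5d (0.914), a subunit of ATP synthase, Apoe (0.866) and Ccdc130 (0.841). Atf3 was most like Esyt1 (0.867), Plekha2 (0.774) and Pdf (0.774), and Ier2 like Prdm2 (0.805), Zfp609 (0.768) and Kdm5b (0.755). Klf6 was most like Tm4sf1 (0.885), Marcks (0.856) and Rtn4 (0.832), Ier3 like Cd40 (0.769), Sec23a (0.765) and Anpep (0.760), and Dusp1 had the weakest likeness, to Galnt4 (0.729), Acsm2 (0.686) and Clcn3 (0.677). The points share time of day and library, and each gene was the best of many.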

How the data were processed

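RNA of 18 mouse livers was sequenced. Adapters were removed by the authors with Cutadapt, and reads were assigned to the transcriptome of GRCm38 (Ensembl gene-build 84) with RSEM 1.2.20, per the labels and the study's methods. The RSEM estimated counts were normalized with limma. The values deposited by the authors are this normalized signal on a linear scale: the estimated count with an offset of 0.5 reads, per 1000000 reads of an effective library size. An offset of 0.5 reads sets the floor, between 0.0208 and 0.0478, and reads behind a value were worked out from it. As 39.1% to 47.9% of values per liver were whole reads (tolerance 0.005), count tests were not used.

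Here log2(value + 1) of 14449 genes (2 genes at the floor in every liver were left out) was fitted with limma 3.58.1 in R 4.3.3, without trend, and p-values were adjusted by Benjamini–Hochberg. Fits compared 6 time point means, neighbouring time points, dark with light, and 24 h and 12 h curves. JTK was an alternative for rhythm. Others were other pseudocounts, a filter on low values, 2 rescalings, another prior, and leaving out each liver. Correlations and permutations used Python 3.11.15 and scipy 1.17.1. CV is the SD over the mean. Scripts were tested on simulated data. Coordinates are from GENCODE M21. Livers were grouped by the ZT in their labels, and replicate numbers follow accession order only. The study kept more mice in each group and chose them for sequencing by RNA quality.

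The members and lists were chosen with earlier results of these data known. Named genes are all 10 members, the 4 genes of lowest p of each pathway list (12 for other immediate early genes), the 3 genes most like each member, 4 clock genes and the most abundant marker of each cell type. A gene that this rule also picked is not reported here.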

Additional observations from a re-analysis of the deposited data

How the results depend on the processing

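The calls of Egr1, Junb and Fos for the time point difference, and of Egr1 and Junb for the 24 h rhythm and for dark against light, held in all 6 settings of scale, filter and prior and in all 18 fits without 1 liver. The count of the 10 genes called from ZT1 to ZT5 went from 3 to 1 with no pseudocount, and that from ZT9 to ZT13 from 2 to 1 with no pseudocount, with a pseudocount of 0.1, and with livers rescaled to 1000000 or by median ratios. Over all genes, the 24 h rhythm was called for 5103 and by JTK for 1788, the 12 h term for 126 and, with no pseudocount or one of 0.1, for 62 and 76, and the step from ZT13 to ZT17 for 174 and, with a trended and robust prior, for 301. The cause was not tested. Rescaling to 1000000 also moved the share of called genes that were higher from 55.8% to 43.3% from ZT13 to ZT17 and from 62.4% to 79.8% from ZT17 to ZT21.

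Without 1 liver, the number of the 10 genes called ran from 1 to 4 (ZT1 to ZT5), 0 to 2 (ZT9 to ZT13), 0 to 2 (ZT21 to ZT1) and 0 to 1 (12 h term). Over all genes the counts called ran from 32 to 114 (12 h term), 352 to 729 (ZT1 to ZT5), 79 to 238 (ZT5 to ZT9), 701 to 1342 (ZT9 to ZT13), 49 to 208 (ZT13 to ZT17), 49 to 209 (ZT17 to ZT21) and 9 to 19 (ZT21 to ZT1). A liver left out leaves fewer samples and a time point of 2.

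No paired analysis was possible because the labels give no replicate number and no mouse was sampled at more than 1 time point. Fos, Ier3 and Atf3 rested on 2 to 46 reads per liver and the ZT13 values of Egr1 on 8 to 27.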

Other observations

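Features of the transcripts were looked at beside the levels. The pentamer ATTTA, the core of the AU-rich elements known to shorten the life of many early response mRNAs, was counted in the annotated 3′ UTR of each gene. Per kilobase of 3′ UTR, Ier3 had 8.12 (5 copies), Dusp1 5.77 (4), Fos 4.89 (4) and Junb 4.10 (2), all above at least 90.0% of the 12581 genes examined, whose median was 1.32. Jun (3.24), Atf3 (2.52), Klf6 (2.25), Jund (1.87) and Egr1 (1.64) lay between 57.4% and 82.9%, and Ier2 had none, as did part of all genes, of which 69.8% had at least 1. The density depends on the length of the 3′ UTR, which was 488 bases in Junb and 616 in Ier3. By copies, the median over all genes was 2, as in Junb, and 22.61% of genes had 5 or more. The part of these elements in the levels over the day was not tested. The share of G and C in the transcript was 67.1% in Jund, 62.6% in Junb and 60.9% in Ier2, against a median of 49.95% over all genes, and 42.4% in Klf6.

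Heat shock chaperones are another group that responds quickly to stress. Of a list of 12 genes, which held a transcription factor of this response beside the chaperones, 10 differed between time points by limma, against 26.3% of all genes. The transcription factor was not among the 10. Of these 10, 6 were highest at ZT13 and 4 at ZT17, against 19.0% and 17.4% of all called genes. Between dark and light, 10 of the 12 were called higher in the dark (9 with livers rescaled to 1000000), against 11.9% of all genes. Hspa1b, an inducible chaperone, had 128 ± 60.6 at ZT13 and 7.86 ± 1.25 at ZT21 (SD, n = 3), Hsph1 162 ± 44.1 at ZT13 and 24.1 ± 4.08 at ZT5, and Dnajb1 46.0 ± 8.10 at ZT13 and 14.9 ± 0.459 at ZT21. Hsp90aa1 was highest at ZT17, with 564 ± 21.2, and had 122 ± 4.71 at ZT5, while its mean on the log2(value + 1) scale was lowest at ZT9.

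Among cell type markers, limma called a time point difference (26.3% of all genes) in 4 of 6 hepatocyte, 1 of 6 Kupffer cell, 1 of 5 cholangiocyte and 1 of 3 neutrophil genes, and in none of the sinusoidal endothelial, stellate cell, lymphocyte and erythroid genes, where 2 of 6, 0 of 6, 1 of 3 and 0 of 3 had an unadjusted p below 0.05, against 39.9% of all genes. A 24 h rhythm (35.3% of all genes) was called in 4 of 6 hepatocyte, 3 of 6 Kupffer cell, 3 of 6 sinusoidal endothelial, 3 of 5 cholangiocyte and 1 of 3 neutrophil genes, and in none of the stellate cell, lymphocyte and erythroid genes. Between dark and light, 1 Kupffer cell and 2 sinusoidal endothelial genes were lower in the dark, 2 hepatocyte genes and 1 cholangiocyte gene were higher, and 1 neutrophil gene went each way. The summed Kupffer cell markers were lowest in ZT17 replicate 2 (87.7) and ZT21 replicate 1 (88.8), which also had the lowest summed sinusoidal endothelial markers (87.9 and 93.6).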
